A study of Mus musculus with 4 samples.

Results

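The Early Act Cd8 cells are the splenic T cells to which the depositors' cell type annotation gives that name, read here as early activated CD8 T cells. They were taken by that name alone, and there were 162 of them among 24143 annotated cells in 4 libraries of mouse spleen. The double knockout held 43, the miR-146a knockout 35, aged wild type (WT) 14 and young WT 70. Across all 4 libraries they had a high level of growth and ribosome biogenesis transcripts, the highest of the 16 annotated types in each library. Genes of early T cell activation were also high, and by the median further above memory and naive CD8 cells than the growth genes were. Memory CD4 cells were nearer: 4 of 26 activation genes were 2-fold higher than in them and 2 lower (median log2 0.17). Of all genes, 5.1% were higher and 22.7% lower than in memory CD4 cells. The marker genes that go with the name, Cd8a, Ccl3 and Ccl4, were scarce: Cd8 transcripts were found in a minority of the cells and Ccl3 and Ccl4 in 5 cells.

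The study measured RNA in single droplets (10x Genomics) from live, CD45-positive spleen cells of C57BL/6 mice, sorted for low scatter. The 4 groups were aged mice without miR-146a in any cell and with miR-155 deleted in T cells (the double knockout), aged mice without miR-146a, aged WT mice and young WT mice. The aged mice were 15 months old, each of their libraries was a pool of 3 to 6 mice, and mice called WT had the floxed miR-155 allele with no deletion named. The sources used here give neither the age and pool size of the young mice nor the driver of the T cell deletion. Each group was 1 library, and cells of 1 library are not replicates, so that no difference below has a replicate check and none was tested.

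A CD8 T cell recognises peptide on MHC class I through its T cell receptor and the CD8 coreceptor, which Cd8a and Cd8b1 encode. Soon after activation such a cell makes chemokines, among them CCL3, CCL4 and the XCR1 ligand XCL1, and displays costimulatory receptors such as OX40 (Tnfrsf4) and 4-1BB (Tnfrsf9). It also enlarges under the transcription factor MYC, which drives nucleolar and ribosome assembly genes before the first division. miR-146a limits NF-kB signalling through adaptors such as TRAF6 and IRAK1, and miR-155 promotes T cell activation and effector responses. The 2 deleted miRNAs are shown to make their targeting visible, since a miRNA pairs with its targets mainly through its seed, bases 2 to 8, which stand in capitals (RefSeq, GRCm38.p6; miR-146a-5p at chr11:43374435-43374456 on the minus strand, miR-155-5p at chr16:84714143-84714165 on the plus strand).

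mmu-miR-146a-5p: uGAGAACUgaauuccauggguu

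mmu-miR-155-5p: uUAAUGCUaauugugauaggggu

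The seeds differ. The droplet libraries do not measure mature miRNAs. The miR-155 host transcript Mir155hg had 4 UMIs in the double knockout, 6 in the miR-146a knockout, 3 in aged WT and 4 in young WT in the Early Act Cd8 cells, and since its reads need not come from the miRNA hairpin they do not check the deletion.

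Unique molecular identifiers (UMIs) count transcripts, and the libraries held between 17561683 and 22399381 of them in all. Early Act Cd8 cells contributed 168359 UMIs in the double knockout, 153965 in the miR-146a knockout, 64352 in aged WT and 214723 in young WT. Their median cell had 3449 UMIs in the double knockout, 4205 in the miR-146a knockout, 4513 in aged WT and 3108 in young WT, against 2728 UMIs in the double knockout, 2691 in the miR-146a knockout, 2738 in aged WT and 3421.5 in young WT in Mem Cd8 cells. The aged cells were thus deeper than memory cells and the young ones slightly shallower. No barcode was an Early Act Cd8 cell in 2 libraries, and 5 of the 162 occurred as a barcode of any kind in another library. Levels below are CPM, the UMIs of a gene summed over the cells of a type in a library and scaled to a total of 1000000, and intervals are 95% intervals that cover counting error only.

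Early Act Cd8 cells were scarce in each library and scarcest in aged WT. They were 0.652% of annotated cells in the double knockout (exact Clopper-Pearson interval 0.472 to 0.877%), 0.724% in the miR-146a knockout (0.505 to 1.01%), 0.237% in aged WT (0.130 to 0.398%) and 1.03% in young WT (0.801 to 1.29%). The share was 0.231 times as large in aged WT as in young WT (Katz interval 0.130 to 0.410). It was 3.05 times as large in the miR-146a knockout as in aged WT (1.64 to 5.66), and 0.900 times as large in the double knockout as in the miR-146a knockout (0.577 to 1.40). For the cells in which a Cd8a or Cd8b1 UMI was seen the ratios were other, and each Katz interval included 1. The ratio was 0.712 for aged over young WT (0.295 to 1.72) and 0.458 for the miR-146a knockout over aged WT (0.121 to 1.72). It was 2.69 for the double knockout over the miR-146a knockout (0.750 to 9.63). Without cells that carried more than 1 UMI of 6 B cell and myeloid markers, the ratio of aged over young WT was 0.152.

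Most cells with the annotation showed no Cd8 transcript, and more of them showed a Cd4 transcript, which goes against the name. A UMI of Cd8a or Cd8b1 was found in 35 of 162 cells (21.6%, interval 15.5 to 28.7%), against 66.8% of Mem Cd8, 97.0% of Nai Cd8, 4.81% of Mem Cd4 and 1.78% of Fo B cells (follicular B cells, which should lack Cd8). A Cd4 UMI was found in 43 of 162 cells (26.5%, 19.9 to 34.0%), against 5.88% of Mem Cd8, 1.76% of Nai Cd8, 42.3% of Mem Cd4 and 0.239% of Fo B cells. Over the 4 libraries together, Nai Cd4 cells came nearest to this mix, with a Cd8 UMI in 14.8% and a Cd4 UMI in 28.4% of cells. In young WT, Cd8 UMIs were in 18.6% of Early Act Cd8 and 17.7% of Nai Cd4 cells, and Cd4 UMIs in 25.7% of Early Act Cd8 and 28.3% of Nai Cd4 cells. The likeness did not hold in each library. In the miR-146a knockout, Cd8 UMIs were in 8.57% and Cd4 UMIs in 42.9% of Early Act Cd8 cells. Mem Cd4 cells of that library had 4.06% and 43.0%, and its Nai Cd4 cells 7.42% and 30.9%. In aged WT, Early Act Cd8 cells had 57.1% and 14.3%. There, Mem Cd8 cells had 64.2% and 4.76%, and Nai Cd4 cells 12.4% and 29.7%. Both shares in Early Act Cd8 cells were far above those in follicular B cells. Counted without overlap, 33 cells had Cd8 UMIs only, 41 had Cd4 UMIs only, 2 had both and 86 had neither.

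**Figure D1:**
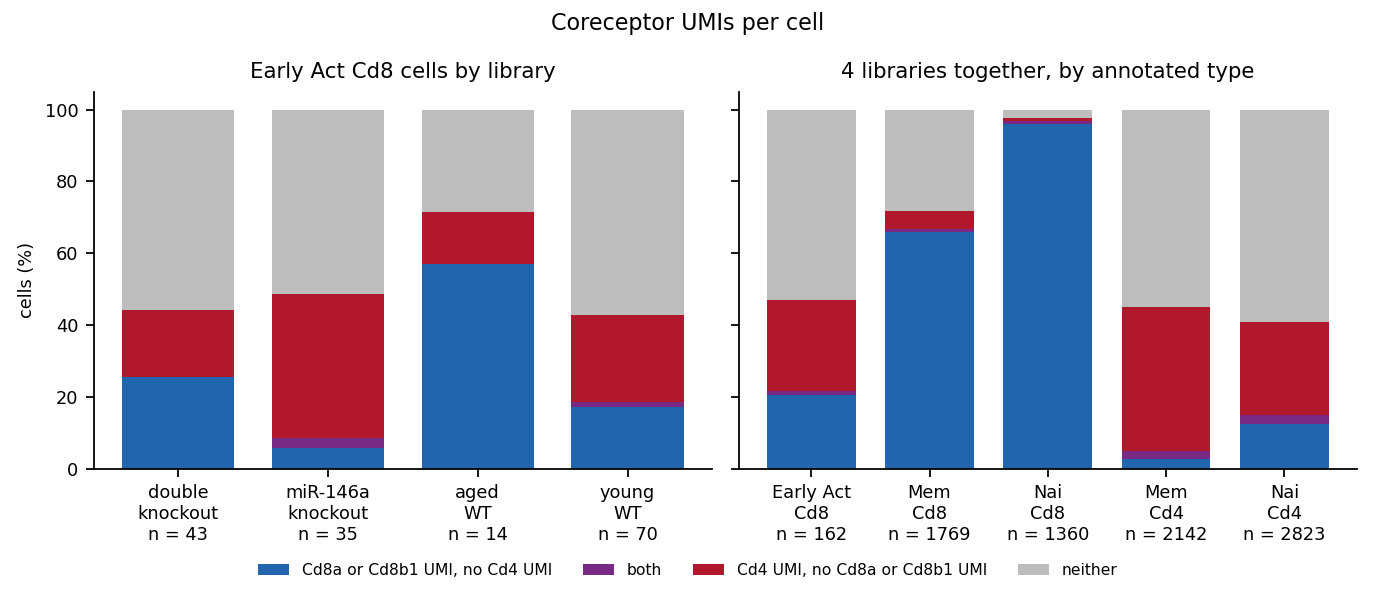
Per cent of cells (vertical axis) with a Cd8a or Cd8b1 UMI only, both Cd8 and Cd4 UMIs, a Cd4 UMI only, or neither. Left, Early Act Cd8 cells by library; right, 5 T cell types over the 4 libraries. A Cd8 UMI was seen in 21.6% of Early Act Cd8 cells and in 97.0% of Nai Cd8 cells.

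The mix of coreceptors differed between libraries. Cd8 UMIs were seen in 11 of 43 cells in the double knockout (25.6%, interval 13.5 to 41.2%), 3 of 35 in the miR-146a knockout (8.57%, 1.80 to 23.1%), 8 of 14 in aged WT (57.1%, 28.9 to 82.3%) and 13 of 70 in young WT (18.6%, 10.3 to 29.7%). Aged WT had the highest share and the miR-146a knockout the lowest, and the intervals of those libraries do not overlap. Cd4 UMIs were seen in 18.6% of the cells in the double knockout, 42.9% in the miR-146a knockout, 14.3% in aged WT and 25.7% in young WT, so that the miR-146a knockout was highest there. After thinning each cell to 1500 UMIs, which left out 2 cells in the miR-146a knockout and 3 in young WT, the share with Cd8 UMIs was 20.9% in the double knockout, 0% in the miR-146a knockout, 35.7% in aged WT and 14.9% in young WT, against 57.0 to 68.5% in Mem Cd8 cells. The part of this mix in the differences between libraries given below was not tested.

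Cd8a (ENSMUSG00000053977) had 226 CPM in the double knockout, 6.49 in the miR-146a knockout, 264 in aged WT and 191 in young WT in Early Act Cd8 cells, which came to 38 UMIs in the double knockout, 1 in the miR-146a knockout, 17 in aged WT and 41 in young WT. In Mem Cd8 cells Cd8a had 384 CPM in the double knockout, 539 in the miR-146a knockout, 309 in aged WT and 365 in young WT. Cd8b1, the partner chain, had 184 CPM in the double knockout, 13.0 in the miR-146a knockout, 451 in aged WT and 149 in young WT in Early Act Cd8 cells. Its level was 829 to 1014 CPM in Mem Cd8 cells. Both chains were thus close to absent in the miR-146a knockout cells, and Cd8a came nearest to the memory level in aged WT. Cd4 had 65.3 CPM in the double knockout, 169 in the miR-146a knockout, 46.6 in aged WT and 97.8 in young WT in Early Act Cd8 cells, against 222 to 324 CPM in Mem Cd4 cells. The T cell receptor constant gene Trac lay within or above the Mem Cd8 range, with 612 CPM in the double knockout, 987 in the miR-146a knockout, 793 in aged WT and 1053 in young WT in Early Act Cd8 cells and 518 to 715 CPM in Mem Cd8 cells. Of the 10 genes on the list CD8 and T lineage, Trac had the highest ratio to Mem Cd8 cells (median log2 0.42, list median -0.23). Against Mem Cd4 cells the list median was -0.61, where that of all genes was -0.32. Cd3e had 439.5 CPM in the double knockout, 546 in the miR-146a knockout, 715 in aged WT and 447 in young WT in Early Act Cd8 cells.

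The inflammatory chemokines, which the name implies, rested on single cells. Ccl4 (ENSMUSG00000018930) had 2 UMIs in the double knockout, 331 in the miR-146a knockout, 80 in aged WT and 76 in young WT, found in 1 cell in the double knockout, 2 in the miR-146a knockout, 1 in aged WT and 1 in young WT. Ccl3 had 0 UMIs in the double knockout, 139 in the miR-146a knockout, 0 in aged WT and 0 in young WT. Of the UMIs in the miR-146a knockout, 329 of Ccl4 and 138 of Ccl3 came from the same cell. That cell had 4459 UMIs, among them 117 of Ccl5, 39 of Nkg7, a cytotoxic granule protein, and 14 of Ifng, the gene of interferon gamma, with 1 Cd4 UMI and no Cd8 UMI.

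Expressed as levels, Ccl4 had 11.9 CPM in the double knockout, 2149.8 in the miR-146a knockout, 1243 in aged WT and 354 in young WT in Early Act Cd8 cells. It had 248 CPM in the double knockout, 392 in the miR-146a knockout, 67.0 in aged WT and 17.7 in young WT in Mem Cd8 cells. The memory cells spread it more widely, with a Ccl4 UMI in 68 of 489 cells in the double knockout, 135 of 433 in the miR-146a knockout, 60 of 483 in aged WT and 19 of 364 in young WT. Follicular B cells had at most 1.35 CPM of Ccl4, so that free RNA was low for this gene. Set against Mem Cd8 cells, the summed Ccl4 level had a median log2 ratio of 3.32 over the 4 libraries, which describes 5 cells.

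Xcl1, a chemokine that attracts cross-presenting dendritic cells, had 46 UMIs in the double knockout, 9 in the miR-146a knockout, 113 in aged WT and 75 in young WT in Early Act Cd8 cells. It came from 6 cells in the double knockout, 1 in the miR-146a knockout, 3 in aged WT and 3 in young WT, and the top cell held 25 UMIs in the double knockout, 9 in the miR-146a knockout, 95 in aged WT and 48 in young WT. In aged WT and in young WT the cell with the most Xcl1 was also the cell with the Ccl4. The aged WT cell held 5710 UMIs, among them 13 of Tnfrsf9, 8 of Cd8b1 and 8 of Cd69, and the young WT cell held 3349 UMIs and none of Cd8a or Cd8b1. Ccl5, a chemokine stored by memory and effector T cells, had 731 CPM in the double knockout, 1169 in the miR-146a knockout, 1709 in aged WT and 633 in young WT in Early Act Cd8 cells, against 7391 to 35404 CPM in Mem Cd8 cells. One cell held 36 of its 123 UMIs in the double knockout, 117 of 180 in the miR-146a knockout, 65 of 110 in aged WT and 102 of 136 in young WT.

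**Figure D2:**
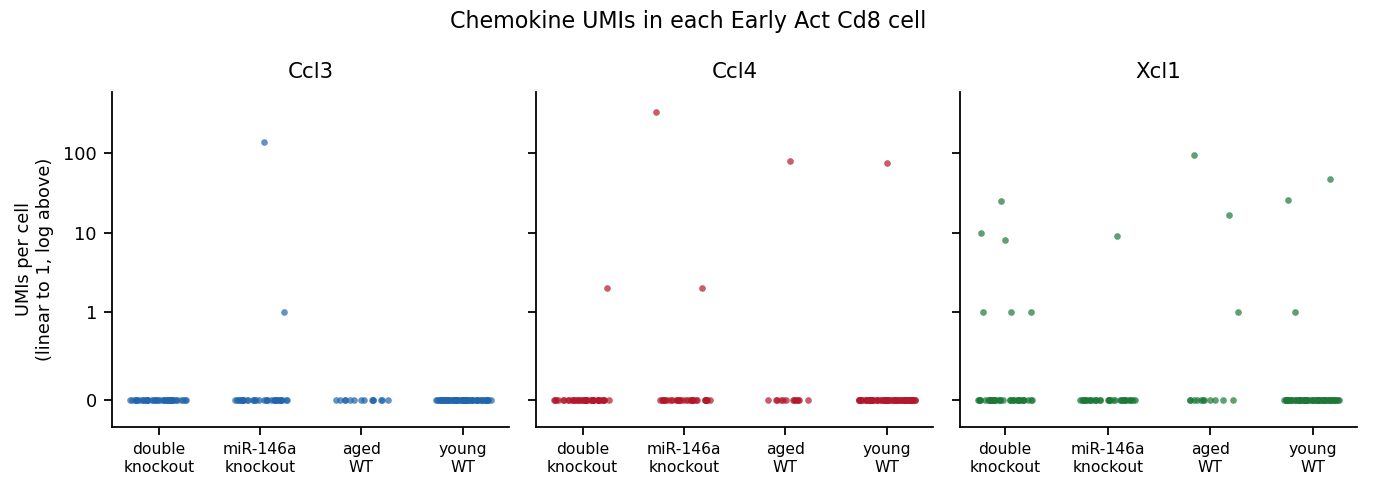
UMIs of Ccl3, Ccl4 and Xcl1 in each Early Act Cd8 cell (points; vertical axis linear up to 1 UMI and logarithmic above), by library. Nearly all cells lie at 0 and the summed levels come from a few cells, such as the miR-146a knockout cell with 329 Ccl4 and 138 Ccl3 UMIs.

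Ifng had 1 UMI in the double knockout, 14 in the miR-146a knockout, 0 in aged WT and 3 in young WT, Gzmb, the granzyme B gene, had 0 UMIs in the double knockout, 6 in the miR-146a knockout, 2 in aged WT and 0 in young WT and Gzmk had 4 UMIs in the double knockout, 9 in the miR-146a knockout, 1 in aged WT and 0 in young WT. The early surface marker Cd69 had 71.3 CPM in the double knockout, 110.4 in the miR-146a knockout, 264 in aged WT and 149 in young WT in Early Act Cd8 cells, 73.9 to 101 CPM in Mem Cd8 cells and 83.2 to 141 CPM in Fo B cells. Its level was above both types in the 2 WT libraries and the miR-146a knockout, and below both in the double knockout. Nr4a1, an immediate target of T cell receptor signalling, had 11 UMIs in the double knockout, 5 in the miR-146a knockout, 6 in aged WT and 18 in young WT, of which the top cell held 10 UMIs in the double knockout, 2 in the miR-146a knockout, 5 in aged WT and 12 in young WT.

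What the cells shared was a high level of growth transcripts. MYC target genes of nucleolus, ribosome assembly and translation were described with a list of 20, Growth and ribosome biogenesis. In Early Act Cd8 cells the list summed to 15378 summed CPM in the double knockout, 13776 in the miR-146a knockout, 14063 in aged WT and 12393 in young WT. In Mem Cd8 cells it summed to 5347 summed CPM in the double knockout, 4744 in the miR-146a knockout, 5146 in aged WT and 5631 in young WT, in Nai Cd8 cells to 5650 to 5960 and in Mem Cd4 cells to 4509 to 4820 summed CPM. Early Act Cd8 cells ranked first of the 16 annotated types in each of the 4 libraries, and the annotated germinal centre centroblasts came next with 7894 to 10074 summed CPM.

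**Figure D3:**
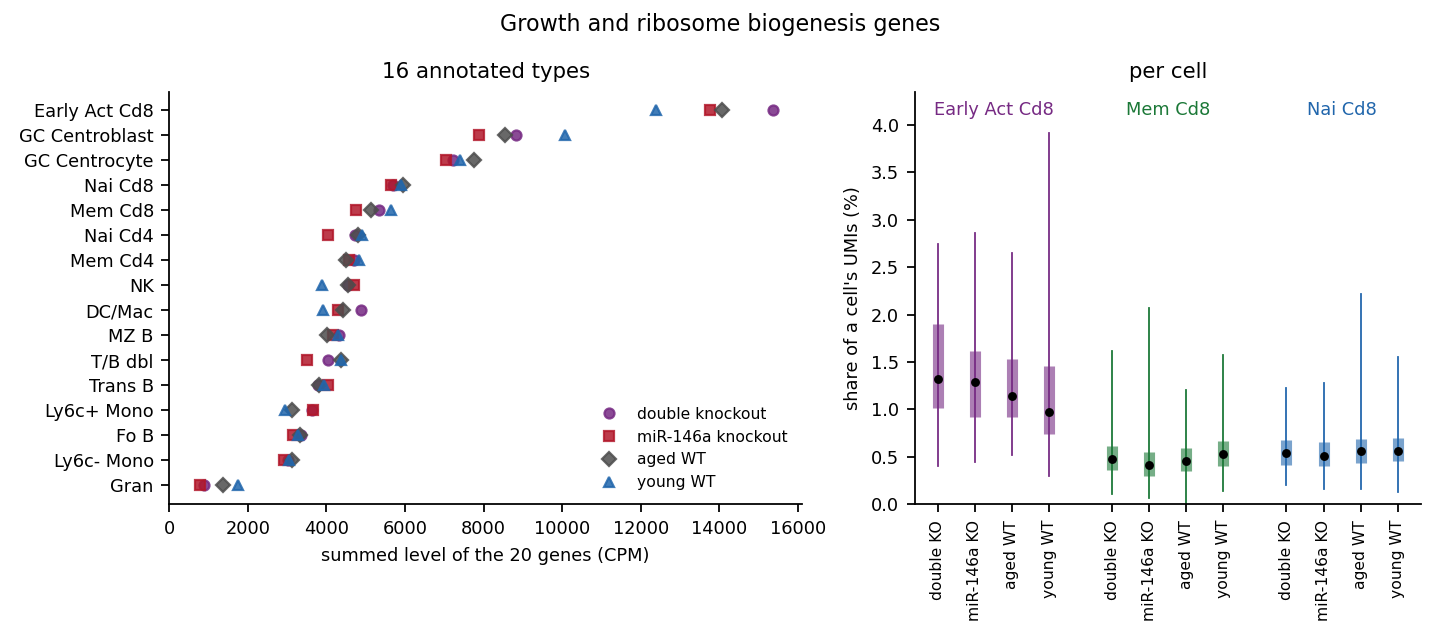
Left, summed CPM of 20 growth and ribosome biogenesis genes in each annotated cell type, with 1 marker per library. Right, the per cent of a cell's UMIs from those genes in Early Act Cd8, Mem Cd8 and Nai Cd8 cells by library (dot, median; box, quartiles; line, lowest to highest cell). Early Act Cd8 cells had the highest sums in all 4 libraries, and all but 7 of the 162 cells lay above the Mem Cd8 median of their library.

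The growth transcripts were spread over the cells, unlike the chemokines. The list made up a median of 1.32% of a cell's UMIs in the double knockout, 1.29% in the miR-146a knockout, 1.14% in aged WT and 0.969% in young WT, against 0.476% in the double knockout, 0.411% in the miR-146a knockout, 0.461% in aged WT and 0.529% in young WT in Mem Cd8 cells. Of 162 Early Act Cd8 cells, all but 7 lay above the median of their own library's Mem Cd8 cells: 42 of 43 in the double knockout, 35 of 35 in the miR-146a knockout, 14 of 14 in aged WT and 64 of 70 in young WT. A high level was found with either coreceptor: the list summed to 16081 CPM in the 33 cells with Cd8 UMIs only, 12488 CPM in the 41 with Cd4 UMIs only and 13288 CPM in the 86 with neither. Median depth was 4521 UMIs in the cells with Cd8 UMIs only, 3324 in those with Cd4 UMIs only and 2848.5 in those with neither.

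Gene by gene, higher and lower mean that the median log2 ratio over the 4 libraries passed 2-fold, among genes with at least 20 UMIs in both profiles together. Against Mem Cd8 cells, 18 of the 20 growth genes were higher and none lower (median log2 1.52), where 9.32% of 9232 genes were higher and 18.8% lower and the median of all genes was -0.03. Against Nai Cd8 cells, 16 of 20 were higher and none lower (median 1.27), where 10.5% of 8621 genes were higher and 12.6% lower and the median of all genes was 0.10. The annotation was made from the same transcripts, so these counts describe the annotated cells and are no test. With TMM scaling, which moves the median of all genes by -0.31 against Mem Cd8 and by -0.40 against Nai Cd8, 14 of 20 were higher than in Mem Cd8 and 9 of 20 than in Nai Cd8 cells. With totals that leave out ribosomal protein and other abundant genes the count against Nai Cd8 was 11 of 20.

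Nucleolin (Ncl, ENSMUSG00000026234), a nucleolar protein of ribosome assembly, had 1378 CPM in the double knockout, 1331 in the miR-146a knockout, 1399 in aged WT and 1211 in young WT in Early Act Cd8 cells, against 405 to 459 CPM in Mem Cd8 cells and 284 to 331 CPM in Fo B cells. The groups did not overlap. Srm, which makes spermidine, had 143 CPM in the double knockout, 175 in the miR-146a knockout, 249 in aged WT and 256 in young WT in Early Act Cd8 cells, against 34.2 to 65.1 CPM in Mem Cd8 cells. Odc1, the first enzyme of polyamine synthesis, had the highest ratio of the list to Mem Cd8 cells (median log2 2.25), with 196 CPM in the double knockout, 253 in the miR-146a knockout, 171 in aged WT and 88.5 in young WT in Early Act Cd8 cells and 24.9 to 40.9 CPM in Mem Cd8 cells. The lowest ratio was that of Polr1b, a subunit of RNA polymerase I (median log2 0.71).

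The nucleotide kinase gene Nme1 had 1016 CPM in the double knockout, 734 in the miR-146a knockout, 699 in aged WT and 764 in young WT in Early Act Cd8 cells, against 262 to 331 CPM in Mem Cd8 cells. Ran, the nuclear transport GTPase, had 998 CPM in the double knockout, 877 in the miR-146a knockout, 1057 in aged WT and 638 in young WT in Early Act Cd8 cells, against 347 to 366 CPM in Mem Cd8 cells. Eif4a1, the helicase of translation initiation, had 1313 CPM in the double knockout, 1299 in the miR-146a knockout, 1429.6 in aged WT and 1327 in young WT in Early Act Cd8 cells, against 448 to 555 CPM in Mem Cd8 cells. Myc itself had 20 UMIs in the double knockout, 11 in the miR-146a knockout, 10 in aged WT and 25 in young WT in Early Act Cd8 cells, with a median log2 ratio of 1.46 to Mem Cd8 cells. Each of these genes was higher in Early Act Cd8 cells in all 4 libraries, and the examples other than Odc1, Polr1b and Myc were chosen after their values were seen.

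MYC binds the E-box CACGTG, a palindrome that reads the same on both strands. Of the 17 growth genes with a RefSeq promoter window, which runs from 250 bases before to 50 after a start site, 5 held that motif (29.4%), against 2187 of 27025 genes with a window (8.09%). Among windows the shares were 8 of 24 (33.3%) and 2349 of 32851 (7.15%). Of the 9 genes with a window among the 12 named as highest against Mem Cd8 cells, 1 held it (11.1%). The growth list was drawn up from MYC target genes, so a raised share is built into that choice. The sites are shown because these genes were high together, with 12 bases on either side and the E-box in capitals (GRCm38.p6). A match is a description of these letters and not a site of binding.

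Eif4a1, chr11:69672595-69672624, minus strand, motif starting 189 bases before the start site: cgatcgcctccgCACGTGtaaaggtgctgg

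Eif5a, chr11:69920791-69920820, minus strand, 178 bases before: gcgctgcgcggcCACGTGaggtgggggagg

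Eif5a, a second start site, chr11:69921443-69921472, minus strand, 185 bases before: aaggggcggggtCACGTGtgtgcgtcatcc

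Nme1, chr11:93968037-93968066, minus strand, 29 bases before: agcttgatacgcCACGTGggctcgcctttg

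Nme1, a second start site, chr11:93968273-93968302, minus strand, 18 bases before: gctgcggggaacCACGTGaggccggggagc

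Ran, chr5:129020026-129020055, plus strand, 118 bases before: gctcggccggccCACGTGacccgccgcccc

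Set, chr2:30061850-30061879, plus strand, 134 bases before: gccacaggcttcCACGTGcaacccggggtt

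In the library comparisons given here the growth genes differed little. Of the 19 members measured, none passed 2-fold in aged over young WT (median log2 0.20), in the miR-146a knockout over aged WT (-0.07) or in the double knockout over the miR-146a knockout (0.06). Few of all genes passed it either, so that none of 19 is near their share. Higher and lower were 6.25% and 5.53% in aged over young WT and 8.92% and 3.95% in the miR-146a knockout over aged WT. They were 2.36% and 3.71% in the double knockout over the miR-146a knockout. By the summed levels above, a high level of Growth and ribosome biogenesis was common to the young, the aged and both knockout libraries.

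Beyond growth, Tnfrsf4 stood furthest above Mem Cd8 cells. Over all genes, 860 were higher and 1737 lower than in Mem Cd8 cells, so that 33.1% of those past 2-fold were higher, or 15.1% with TMM scaling. The naming rule, which does not ask for a median past 2-fold, was met by 296 higher and 403 lower genes. It asks for 1.5-fold in the same direction in each library, with at least 40 UMIs in the higher type. The largest median log2 ratios were those of Tnfrsf4 (5.51), the fatty acid binding protein gene Fabp5 (4.45) and Marcksl1 (4.20). Next came the activation marker Cd83 (4.19), the MYC target Cdca7 (4.19), the tetraspanin gene Cd81 (3.81), Izumo1r, which encodes folate receptor 4 of regulatory and other CD4 T cells (3.55), Tnfrsf9 (3.51) and Cd200 (3.46). Nrn1, Nr4a1 and Tiam1 followed, with 3.40, 3.29 and 3.12.

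OX40 (Tnfrsf4, ENSMUSG00000029075), a costimulatory receptor, had 1194 CPM in the double knockout, 1461 in the miR-146a knockout, 342 in aged WT and 51.2 in young WT in Early Act Cd8 cells. A UMI of it was seen in 27 of 43 cells in the double knockout, 29 of 35 in the miR-146a knockout, 6 of 14 in aged WT and 6 of 70 in young WT. Mem Cd8 cells had 17.4 CPM in the double knockout, 28.2 in the miR-146a knockout, 6.91 in aged WT and 5.62 in young WT, and Fo B cells had at most 4.96 CPM. Mem Cd4 cells had 944 CPM in the double knockout, 906 in the miR-146a knockout, 556 in aged WT and 328 in young WT. The 2 knockouts were thus highest, above their memory CD4 cells, and the 2 WT libraries lay below theirs.

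4-1BB (Tnfrsf9, ENSMUSG00000028965), another costimulatory receptor, had 404 CPM in the double knockout, 448 in the miR-146a knockout, 544 in aged WT and 168 in young WT in Early Act Cd8 cells, against 31.9 CPM in the double knockout, 45.3 in the miR-146a knockout, 26.3 in aged WT and 14.5 in young WT in Mem Cd8 cells and 268 CPM in the double knockout, 299 in the miR-146a knockout, 127 in aged WT and 67.7 in young WT in Mem Cd4 cells. It was higher than in either type in each library. GITR (Tnfrsf18) had 249 CPM in the double knockout, 396 in the miR-146a knockout, 357 in aged WT and 116 in young WT in Early Act Cd8 cells. Fabp5 had 143 CPM in the double knockout, 182 in the miR-146a knockout, 124 in aged WT and 46.6 in young WT in Early Act Cd8 cells, against 4.14 to 7.43 CPM in Mem Cd8 cells. Marcksl1, which binds actin and calmodulin, had 232 CPM in the double knockout, 247 in the miR-146a knockout, 186 in aged WT and 139.7 in young WT in Early Act Cd8 cells, against 7.60 to 12.5 CPM in Mem Cd8 cells and 57.0 to 63.7 CPM in Fo B cells. Both were above Mem Cd8 cells in all 4 libraries.

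**Figure D4:**
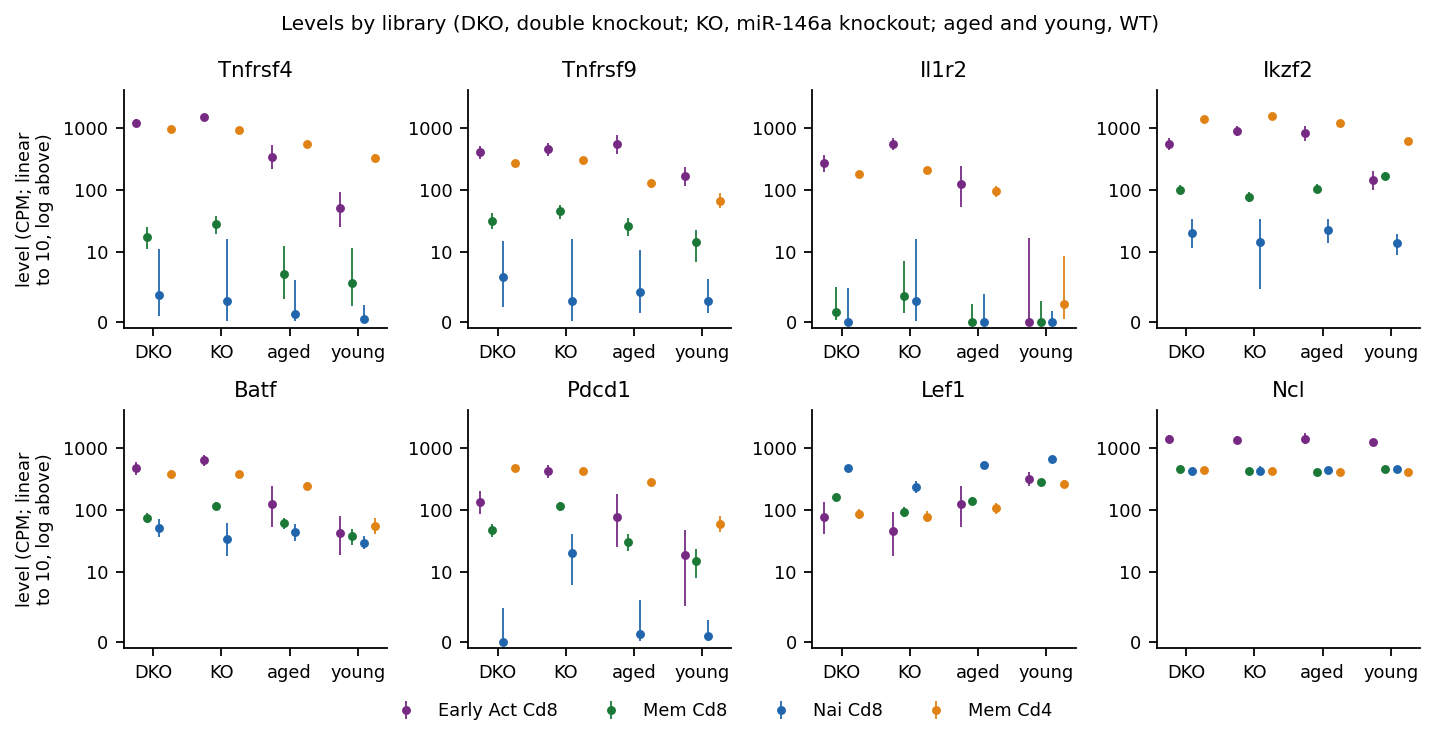
CPM of 8 genes in Early Act Cd8, Mem Cd8, Nai Cd8 and Mem Cd4 cells by library (points, with exact Poisson 95% intervals of the summed UMIs; vertical axis linear up to 10 CPM and logarithmic above). Tnfrsf4 ranges from 51.2 CPM in young WT to 1461 CPM in the miR-146a knockout in Early Act Cd8 cells, while Ncl is at a similar level in all 4 libraries.

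Of the 26 genes on the list Early T cell activation, 24 were measured against Mem Cd8 cells, of which 19 were higher and 1 lower (median log2 1.95). The highest was Tnfrsf4 and the lowest Rgs1, a brake on chemokine signalling (-1.19). Against Nai Cd8 cells 23 of 24 were higher and none lower (median 3.02), with Cd69 lowest at 0.98. The list summed to 3986 summed CPM in the double knockout, 4761 in the miR-146a knockout, 3465 in aged WT and 1411 in young WT in Early Act Cd8 cells, against 700.4 to 1069.8 summed CPM in Mem Cd8 cells. Of 20 NF-kB response genes, 11 were higher than in Mem Cd8 cells and none lower (median 1.14), from Cd83 (4.19) to Icam1 (-0.51), and 11 were higher than in Nai Cd8 cells (median 1.40). With TMM scaling 7 of the 20 were higher than in Mem Cd8 cells. Among all genes measured, 9.32% were higher and 18.8% lower than in Mem Cd8 cells. The shares against Nai Cd8 cells were 10.5% higher and 12.6% lower.

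Cytotoxic genes were low. Of 16 cytotoxic effectors measured, 14 were lower than in Mem Cd8 cells and 1 was higher (median log2 -3.72), where 18.8% of all genes were lower and 9.32% higher. The exception was Srgn, the granule proteoglycan serglycin (1.60). The lowest was Klrk1, which encodes the receptor NKG2D, with 2 UMIs in Early Act Cd8 and 1240 in Mem Cd8 cells. Granzyme M (Gzmm) had no UMI in any Early Act Cd8 cell and 849 in Mem Cd8 cells, which makes it at least 31.1-fold lower with a floor of 3 counts over the 4 libraries, and the list's median is the same with Gzmm at that bound. Nkg7 had 731 CPM in the double knockout, 649 in the miR-146a knockout, 699 in aged WT and 224 in young WT in Early Act Cd8 cells, against 1572 to 4020.0 CPM in Mem Cd8 cells, and was lower in each library.

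The lowest genes against Mem Cd8 cells by the naming rule had hardly a UMI in Early Act Cd8 cells, so that their ratios would depend on the 1 count added before taking logs, and only UMIs over the 4 libraries are given. Klrd1, which encodes CD94, had 7 UMIs in Early Act Cd8 and 1725 in Mem Cd8 cells. Fcgrt, the neonatal Fc receptor, had 1 UMI in Early Act Cd8 and 522 in Mem Cd8 cells, Samd3 had 3 UMIs in Early Act Cd8 and 617 in Mem Cd8 cells, and Klre1 had 1 UMI in Early Act Cd8 and 529 in Mem Cd8 cells. Klra7 and Ifitm10 had no UMI in Early Act Cd8 cells, against 406 UMIs of Klra7 and 454 of Ifitm10 in Mem Cd8 cells. Ly6c2, a surface marker of memory CD8 cells, had 83.2 CPM in the double knockout, 6.49 in the miR-146a knockout, 0 in aged WT and 65.2 in young WT in Early Act Cd8 cells. It had 1277 CPM in the double knockout, 905 in the miR-146a knockout, 1178 in aged WT and 1159.8 in young WT in Mem Cd8 cells. Fo B cells had 8.92 to 21.1 CPM of it. Of 24 effector and memory genes, 20 were lower and 1 was higher than in Mem Cd8 cells (median log2 -1.66, or -1.56 with Cx3cr1, at 0, set at its bound), the exception being Itgae, which encodes the integrin CD103 (2.01). Of all genes 18.8% were lower and 9.32% higher. Il2rb, the shared receptor chain for IL-2 and IL-15, had 255 CPM in the double knockout, 247 in the miR-146a knockout, 326 in aged WT and 107 in young WT in Early Act Cd8 cells, against 341 to 399 CPM in Mem Cd8 cells. The memory CD8 markers were therefore low in cells whose level of the T cell receptor gene Trac lay within or above the Mem Cd8 range.

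Naive genes were low as well. Of 14 naive T cell genes, 11 were lower than in Nai Cd8 cells and none higher (median log2 -2.04), the lowest being Igfbp4 (-3.49). Lef1, a transcription factor of naive cells, had 77.2 CPM in the double knockout, 45.5 in the miR-146a knockout, 124 in aged WT and 317 in young WT in Early Act Cd8 cells. It had 466 CPM in the double knockout, 232 in the miR-146a knockout, 534 in aged WT and 648 in young WT in Nai Cd8 cells. Young WT came nearest to the naive level. Against Mem Cd8 cells 2 naive genes were higher and 5 lower (median -0.44). Over all genes, 10.5% were higher and 12.6% lower than in Nai Cd8 cells, and 9.32% higher and 18.8% lower than in Mem Cd8 cells.

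Over all genes, 909 were higher and 1085 lower than in Nai Cd8 cells, so that 45.6% of those past 2-fold were higher, or 16.8% with TMM scaling and 30.1% with totals that leave out abundant genes. The largest median log2 ratios by the rule, which 316 higher and 250 lower genes met, were those of Ccl4 (7.61, resting on the 5 cells above), Tnfrsf4 (7.22), Tnfrsf9 (5.80), Cd81 (5.01) and Marcksl1 (4.91). Next came Ikzf2 (4.84), which encodes the transcription factor HELIOS, Nrn1 (4.57), the survival gene Bcl2a1d (4.53) and the inhibitory receptor gene Pdcd1 (4.40). Fabp5, Cd83 and Lag3 followed, with 3.98, 3.90 and 3.83. The lowest were Klrd1, with 7 UMIs in Early Act Cd8 and 1172 in Nai Cd8 cells, and Ly6c2, with 29 UMIs in Early Act Cd8 and 1834 in Nai Cd8 cells.

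**Figure D5:**
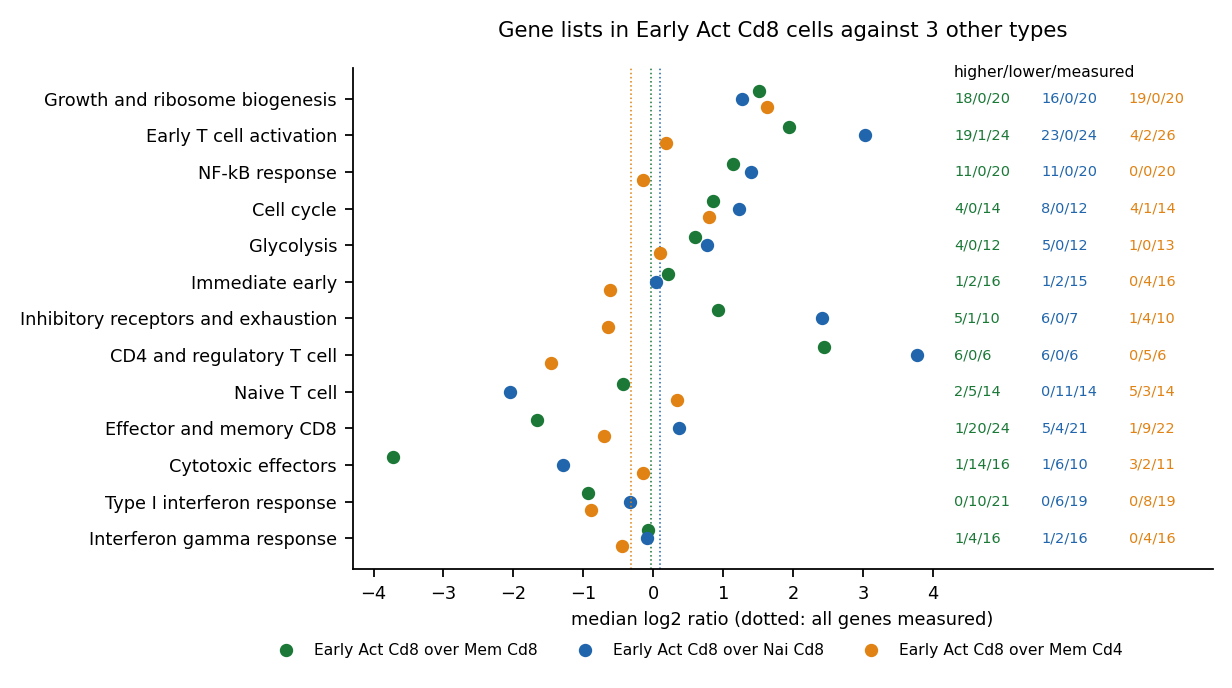
Median log2 ratio of each gene list in Early Act Cd8 cells over Mem Cd8, Nai Cd8 and Mem Cd4 cells (horizontal axis; each value is a median over 4 libraries and then over the measured members; the dotted line is the median of all genes). Counts at the right give members higher and lower by at least 2-fold, of those measured. Growth genes stand above all 3 types, activation genes above both CD8 types with a median of 0.17 against Mem Cd4 cells.

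Because Cd4 transcripts were present, the cells were also set against Mem Cd4 cells, a comparison added after those transcripts were seen. There, 5.1% of 9380 genes were higher and 22.7% lower, 478 and 2126 genes, with a median of all genes of -0.32. Of 26 early activation genes 4 were higher and 2 lower (median log2 0.17). The number higher was 8 without the miR-146a knockout library, 9 without the double knockout library and 8 without cells that carried B cell or myeloid markers. None of 20 NF-kB response genes passed 2-fold (median -0.15). Of the growth genes 19 of 20 were higher and none lower (median 1.62), from Srm (3.47) to Odc1 (0.80). Myc had 9.67 to 45.5 CPM in Mem Cd4 cells, and its median log2 ratio in Early Act Cd8 cells was 2.69.

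By the naming rule, which 184 genes met, the genes most above Mem Cd4 cells were Xcl1 (median log2 4.27), Cd8a (3.69), Ifrd2 (3.49), Srm, and Cdca7 (2.88). Next came the mitochondrial import gene Timm8a1 (2.76), the DNA repair gene Apex1 (2.69), Myc (2.69), Nkg7 (2.62), the transfer RNA methyltransferase gene Mettl1 (2.59), the DNA repair gene Ung (2.54) and the nucleolar gene Nop16 (2.47). Apex1 had 202 CPM in the double knockout, 195 in the miR-146a knockout, 249 in aged WT and 224 in young WT in Early Act Cd8 cells, against 25.3 to 48.2 CPM in Mem Cd8 cells. Among the lowest were the cell cycle phosphatase gene Cdc25b, with 3 UMIs in Early Act Cd8 and 276 in Mem Cd4 cells, Nav2, with 8 UMIs in Early Act Cd8 and 631 in Mem Cd4 cells, and the calcium channel gene Cacna1d, with none in Early Act Cd8 and 114 UMIs in Mem Cd4 cells.

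The 6 genes of CD4 and regulatory T cells lay between the CD8 and CD4 types. All 6 were higher than in Mem Cd8 cells (median log2 2.45, from Cd40lg at 1.37 to Foxp3 at 4.01) and than in Nai Cd8 cells (median 3.77). Of the 6, 5 of 6 were lower than in Mem Cd4 cells (median -1.46, the lowest Ctla4 at -2.40 and the highest Il2ra at 0.87). Among all genes measured, 9.32% were higher than in Mem Cd8, 10.5% higher than in Nai Cd8 and 22.7% lower than in Mem Cd4 cells. The list CD4 and regulatory T cell summed to 790.0 summed CPM in the double knockout, 1254 in the miR-146a knockout, 1026 in aged WT and 307 in young WT in Early Act Cd8 cells, 124 to 201 summed CPM in Mem Cd8 cells and 1133 to 2180.3 summed CPM in Mem Cd4 cells. Foxp3, the regulatory T cell factor, had 8 UMIs in the double knockout, 9 in the miR-146a knockout, 4 in aged WT and 2 in young WT in Early Act Cd8 cells. Ikzf2 had 552 CPM in the double knockout, 889.8 in the miR-146a knockout, 824 in aged WT and 144 in young WT in Early Act Cd8 cells, against 602 to 1528 CPM in Mem Cd4 cells.

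Within the annotated cells, the coreceptor went with other genes. Tnfrsf4 had 283 CPM in the cells with Cd8 UMIs only, 1043 CPM in those with Cd4 UMIs only and 891 CPM in those with neither, and Tnfrsf9 had 547 CPM in cells with Cd8 UMIs only, 262 in those with Cd4 UMIs only and 291 in those with neither. Xcl1 had 1044 CPM in cells with Cd8 UMIs only, 6.10 in those with Cd4 UMIs only and 283 in those with neither, and Nkg7 had 1119 CPM in cells with Cd8 UMIs only, 384 in those with Cd4 UMIs only and 276 in those with neither. Both were highest where Cd8 was seen, though single cells weigh on these values. For Xcl1, 1 cell held 95 of the 166 UMIs of the class with Cd8 UMIs only. Another held 48 of the 76 Xcl1 UMIs of the class with neither. For Nkg7, 1 cell held 39 of the 63 UMIs of the class with Cd4 UMIs only. Ikzf2 had 339 CPM in cells with Cd8 UMIs only, 622 in those with Cd4 UMIs only and 563 in those with neither. Il1r2, the decoy receptor for IL-1, had 12.6 CPM in cells with Cd8 UMIs only, 402 in those with Cd4 UMIs only and 220.0 in those with neither. Maf, a transcription factor of helper T cells, had 18.9 CPM in cells with Cd8 UMIs only, 244 in those with Cd4 UMIs only and 78.3 in those with neither. Tnfrsf4, Ikzf2, Il1r2 and Maf were highest where Cd4 was seen. The classes mix libraries in different shares and differ in depth, and the part of either in these values was not tested.

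Of 14 cell cycle genes measured, 4 were higher than in Mem Cd8 cells and none lower (median log2 0.85), led by the replication gene Mcm5 (2.60), and 8 of 12 were higher than in Nai Cd8 cells (median 1.23). The proliferation marker Mki67 had 0 UMIs in the double knockout, 0 in the miR-146a knockout, 0 in aged WT and 1 in young WT and Top2a had 1 UMI in the double knockout, 2 in the miR-146a knockout, 0 in aged WT and 2 in young WT. Of 12 glycolysis genes, 4 were higher than in Mem Cd8 cells and 5 than in Nai Cd8 cells. Over all genes, 9.32% were higher and 18.8% lower than in Mem Cd8 cells, and 10.5% higher and 12.6% lower than in Nai Cd8 cells. Of 10 measured genes of the list Inhibitory receptors and exhaustion, 5 were higher and 1 was lower than in Mem Cd8 cells (median 0.92). The highest was Tnfrsf9 (3.51), a costimulatory receptor gene.

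The list Heat shock had its highest sum of the 16 types in Early Act Cd8 cells in each library, with 9658 summed CPM in the double knockout, 8931 in the miR-146a knockout, 8593 in aged WT and 7153 in young WT, against 4131 to 4599 summed CPM in Mem Cd8 cells. Of its 10 genes, 3 were higher and 2 lower than in Mem Cd8 cells (median log2 0.76), the highest being the mitochondrial chaperonin gene Hspd1 (1.92) and the lowest the stress-induced Hspa1a, which had no UMI in Early Act Cd8 cells. Hspd1 had 529 CPM in the double knockout, 552 in the miR-146a knockout, 497 in aged WT and 368 in young WT in Early Act Cd8 cells, against 109 to 139.5 CPM in Mem Cd8 cells. Of 16 immediate early genes 1 was higher and 2 were lower than in Mem Cd8 cells, where 9.32% of all genes were higher and 18.8% lower.

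Of 21 type I interferon response genes measured, 10 were lower than in Mem Cd8 cells and none higher (median log2 -0.93, or -0.45 with the 2 genes at 0 set at their bound), the lowest being Ifit3, with 1 UMI in the double knockout, 0 in the miR-146a knockout, 0 in aged WT and 1 in young WT in Early Act Cd8 cells and 54 UMIs in the double knockout, 42 in the miR-146a knockout, 50 in aged WT and 30 in young WT in Mem Cd8 cells. Of 16 interferon gamma response genes 1 was higher and 4 were lower. Of all genes measured against Mem Cd8 cells, 9.32% were higher and 18.8% lower. Of 13 chemokine and cytokine genes 5 were higher and 3 lower, the highest Ccl4 and the lowest Ccl5 (-4.17).

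Aged WT was set against young WT to show what went with age. The 14 aged cells held 64352 UMIs, so that 1936 genes could be compared, of which 121 (6.25%) were higher and 107 (5.53%) lower by 2-fold. Of those 228 genes 53.1% were higher, or 25.5% with TMM scaling, which moved the median of all genes by -0.25. Of 10 measured early activation genes 5 were higher and none lower (median log2 1.15), the highest Tnfrsf4 (2.58). Of 3 measured genes of the list Inhibitory receptors and exhaustion 2 were higher. One of them was the costimulatory receptor gene Tnfrsf9 (log2 1.66), and the transcription factor gene Tox had a log2 ratio of -0.13. Pdcd1 and Lag3 had too few UMIs to be measured. Naive genes were lower: 8 of 12 were lower and none higher (median -1.19, or -1.17 with Actn1 at its bound).

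By the naming rule, here 20 or more UMIs from 8 or more cells in the higher library and an interval wholly past 1.5-fold, 7 genes were higher in aged WT. Ikzf2 had 53 UMIs in 8 aged WT cells and 31 UMIs in 11 young WT cells, which was 5.70-fold higher (95% interval 3.60 to 9.19). One aged WT cell held 18 of the 53 UMIs. Tnfrsf9 was 3.24-fold higher (95% interval 1.98 to 5.32) and Tnfrsf18 3.07-fold higher (95% interval 1.66 to 5.64). Il2rb was 3.05-fold higher (95% interval 1.60 to 5.76), and AW112010 was 2.37-fold higher (95% interval 1.74 to 3.23). The other two, Cd74 and Ccl5, rested on single cells, which held 51 of 79 Cd74 UMIs and 65 of 110 Ccl5 UMIs in aged WT and 102 of 136 Ccl5 UMIs in young WT. Ccl4 was higher in the same comparison through 1 cell on each side, and its ratio turned to a log2 of -5.52 without cells that carried B cell or myeloid markers.

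The 9 genes lower in aged WT included Thy1, a T cell surface protein, which was 3.34-fold lower (95% interval 1.55 to 8.58), and Itm2a, which was 2.86-fold lower (95% interval 1.54 to 5.91). Cd84, an adhesion receptor, had 1 UMI in aged WT and 41 in young WT, which was 12.3-fold lower (95% interval 2.09 to 497). Actn1, a naive T cell gene, had 0 UMIs in aged WT and 24 in young WT, at least 2.40-fold lower with a floor of 3 counts. Gpr183, which positions lymphocytes in the spleen, had 0 UMIs in aged WT and 23 in young WT, at least 2.30-fold lower. Arl4c, Tnik, Pecam1 and Supt20 completed the set. Lef1 had 124 CPM in aged WT and 317 CPM in young WT in Early Act Cd8 cells, and 534 CPM in aged WT and 648 CPM in young WT in Nai Cd8 cells. Cd8 UMIs were in 57.1% of the aged and 18.6% of the young cells, and B cell genes summed to 4320 CPM in aged and 1341 CPM in young cells. The part of either in these differences was not tested.

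The miR-146a knockout was set against aged WT to show what went with the loss of miR-146a at one age. Of 1670 genes, 149 (8.92%) were higher and 66 (3.95%) lower by 2-fold, so that 69.3% of those past 2-fold were higher, or 82.1% with TMM scaling. Maf led the higher genes, of which 30 met the naming rule, and 1 lower gene met it. Maf had 37 UMIs in the miR-146a knockout and 0 in aged WT, at least 5.15-fold higher with a floor of 3 counts, while in Mem Cd4 cells it had 441 CPM in the miR-146a knockout and 378 CPM in aged WT. Tnfrsf4 was 4.27-fold higher (95% interval 2.75 to 6.96), with 225 UMIs in 29 cells of the miR-146a knockout and 22 UMIs in 6 cells of aged WT.

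Batf, a factor of effector differentiation, was 5.12-fold higher (95% interval 2.50 to 12.2), with 463 CPM in the double knockout, 637 in the miR-146a knockout, 124 in aged WT and 41.9 in young WT over the 4 libraries. Bhlhe40, a transcription factor of cytokine-producing T cells, had 37 UMIs in the miR-146a knockout and 1 in aged WT, which was 15.5-fold higher (95% interval 2.61 to 627). Stx11, a syntaxin of granule release, had 39 UMIs in the miR-146a knockout and 1 in aged WT, which was 16.3-fold higher (95% interval 2.76 to 660.1). Slc7a10, an amino acid transporter, had 29 UMIs in 11 cells of the miR-146a knockout and 0 in aged WT, at least 4.04-fold higher, and no UMI in Mem Cd8 or Fo B cells of any library, against 1.30 to 58.0 CPM in Mem Cd4 cells. The single lower gene was Id3, a regulator of memory precursors, which was 3.30-fold lower (95% interval 2.00 to 5.52), with 1 cell holding 11 of its 29 UMIs in the miR-146a knockout.

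S100a8 had 33 UMIs in the miR-146a knockout and 0 in aged WT, and S100a9 had 32 UMIs in the miR-146a knockout and 0 in aged WT. Both are neutrophil genes, and their level in the miR-146a knockout, 214 and 208 CPM, was below that in Fo B cells of the same library, 377 and 268 CPM, so that they were not read as transcripts of these cells. S100a4 had 30 UMIs in the miR-146a knockout and 0 in aged WT, at least 4.18-fold higher. Lgals1, the galectin-1 gene, was 5.43-fold higher (95% interval 2.77 to 12.2), with 44 of its 117 UMIs in 1 cell. Smco4 and Tpm3-rs7 completed the 12 highest.

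By list, 4 of 13 measured early activation genes were higher and 3 lower in the miR-146a knockout (median log2 0.23), and of 10 NF-kB response genes 1 was higher, Gadd45b (1.03), and 1 lower, Nfkb1 (-1.51), with a median of 0.78. Among all genes measured, 8.92% were higher and 3.95% lower, and the NF-kB counts were near those shares. Of the measured genes of the list Inhibitory receptors and exhaustion 2 of 4 were higher, with Pdcd1 at 137 CPM in the double knockout, 416 in the miR-146a knockout, 77.7 in aged WT and 18.6 in young WT and Lag3 at 172 CPM in the double knockout, 273 in the miR-146a knockout, 77.7 in aged WT and 9.31 in young WT over the 4 libraries. Pdcd1 in Mem Cd4 cells was 468 CPM in the double knockout, 422 in the miR-146a knockout, 277 in aged WT and 59.8 in young WT. The aged WT cells held Cd8 UMIs in 57.1% and the miR-146a knockout cells in 8.57%, and Maf and Tnfrsf4 were higher in cells with Cd4 UMIs only than in those with Cd8 UMIs only, so the mix and the genotype cannot be told apart here.

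Among cells without a Cd8 UMI, Tnfrsf4 had 1540.4 CPM in the double knockout, 1546 CPM in the miR-146a knockout, 705 CPM in aged WT and 68.2 CPM in young WT, and Batf had 630.2 CPM in the double knockout, 553 in the miR-146a knockout, 176 in aged WT and 43.4 in young WT. That class held 32 cells in the double knockout, 32 in the miR-146a knockout, 6 in aged WT and 57 in young WT, and the aged WT value of Batf rests on 4 UMIs (exact Poisson interval 434 to 694 CPM in the miR-146a knockout and 48.1 to 452 CPM in aged WT, which overlap). The Tnfrsf4 intervals in that class were 1343 to 1772 CPM in the miR-146a knockout and 403 to 1146 CPM in aged WT. Ikzf2 had 700.2 CPM in the double knockout, 941 in the miR-146a knockout, 926 in aged WT and 161 in young WT within it, and Cd81 had 403 CPM in the double knockout, 829 in the miR-146a knockout, 1014 in aged WT and 74.4 in young WT. The order of the libraries in these values thus differed from gene to gene. In aged WT, however, single cells held 22 of the 23 Cd81 UMIs and 11 of the 16 Tnfrsf4 UMIs of this class. The places of aged WT for those genes therefore rest on single cells. Il1r2 had 394 CPM in the double knockout, 538 CPM in the miR-146a knockout, 353 CPM in aged WT and 0 CPM in young WT within it. Over all Early Act Cd8 cells Il1r2 had 45 UMIs in the double knockout, 85 in the miR-146a knockout, 8 in aged WT and 0 in young WT, from 11 cells in the double knockout, 21 in the miR-146a knockout, 1 in aged WT and 0 in young WT, against at most 3.71 CPM in Mem Cd8 cells and 178 CPM in the double knockout, 211 in the miR-146a knockout, 95.3 in aged WT and 2.60 in young WT in Mem Cd4 cells. Cells with a Cd8 UMI numbered 11 in the double knockout, 3 in the miR-146a knockout, 8 in aged WT and 13 in young WT. In that order of libraries their Tnfrsf4 level was 462, 896, 144 and 0 CPM, and their Batf level 111, 1195, 96.0 and 37.4 CPM.

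The double knockout was set against the miR-146a knockout to show what went with deletion of miR-155 in T cells. Of 2375 genes, 56 (2.36%) were higher and 88 (3.71%) lower by 2-fold, so that 38.9% of those past 2-fold were higher, or 55.1% with TMM scaling. By the naming rule 6 genes were higher and 8 lower. Cd8b1 had 31 UMIs in the double knockout and 2 in the miR-146a knockout, which was 14.2-fold higher (95% interval 3.61 to 122), and Ms4a4b, a membrane protein of T cells, was 3.24-fold higher (95% interval 2.39 to 4.46). The interferon-inducible GTPase genes Igtp and Iigp1 were 4.23-fold higher (95% interval 1.94 to 10.5) and 4.05-fold higher (95% interval 1.75 to 10.9).

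Igtp had 219.8 CPM in the double knockout, 52.0 in the miR-146a knockout, 62.2 in aged WT and 55.9 in young WT in Early Act Cd8 cells and 56.9 CPM in the double knockout, 123 in the miR-146a knockout, 51.8 in aged WT and 62.6 in young WT in Mem Cd8 cells, so that its order in the knockouts was the opposite in memory cells. Of 10 interferon gamma response genes measured, 4 were higher in the double knockout than in the miR-146a knockout and none lower (median log2 0.62). Among all genes measured, 2.36% were higher and 3.71% lower. Cxcl10, an interferon-induced chemokine, had 39 UMIs in the double knockout, 13 in the miR-146a knockout, 0 in aged WT and 0 in young WT. Senp6 and Smc4, a condensin subunit, were the other two higher genes, 4.76-fold higher (95% interval 1.80 to 15.9) and 2.58-fold higher (95% interval 1.56 to 4.40).

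Lower in the double knockout were Cd81, which was 2.88-fold lower (95% interval 2.06 to 4.09), and Pdcd1, which was 3.04-fold lower (95% interval 1.86 to 5.14). Cd81 had 291 CPM in the double knockout, 838 in the miR-146a knockout, 388 in aged WT and 60.5 in young WT in Early Act Cd8 cells, with 22 of the 25 UMIs of aged WT in 1 cell, and 308 to 348 CPM in Fo B cells. Tiam1, an exchange factor for RAC, was 3.28-fold lower (95% interval 1.56 to 7.52), and Tnfaip8 was 3.13-fold lower (95% interval 1.71 to 6.07). Lamtor2, a lysosomal scaffold of mTORC1 signalling, had 8 UMIs in the double knockout and 32 in the miR-146a knockout, which was 4.37-fold lower. Slc7a10, Cd74 and Anxa2 completed the set, with 17 of the 30 Anxa2 UMIs of the miR-146a knockout in 1 cell. Among early activation genes none of 15 was higher and 1 lower (median log2 -0.29), near the shares over all genes of 2.36% higher and 3.71% lower. Tnfrsf4 had 1194 CPM in the double knockout and 1461 CPM in the miR-146a knockout.

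Of 7 measured literature targets of miR-155, none was higher and 2 were lower in the double knockout than in the miR-146a knockout (median log2 -0.44), the lowest being Sla (-1.12). Among all genes measured, 2.36% were higher and 3.71% lower, so that none higher among 7 is near that share. The double knockout was also set against aged WT, which serves the miR-146a knockout too. There, Maf had 28 UMIs in the double knockout and 0 in aged WT, at least 3.57-fold higher, and Batf was 3.73-fold higher (95% interval 1.80 to 8.94). Cd8 UMIs were in 25.6% of the double knockout and 8.57% of the miR-146a knockout cells, whose part in these differences was not tested.

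Transcripts of other cell types were present. B cell genes summed to 2512 summed CPM in the double knockout, 4202 in the miR-146a knockout, 4320.0 in aged WT and 1341 in young WT in Early Act Cd8 cells, with 1 to 4 of 16 members at 0, and 1446 to 3124 summed CPM in Mem Cd8 cells. The miR-146a knockout and aged WT cells lay above that whole range. Myeloid genes summed to 1016 summed CPM in the double knockout, 981 in the miR-146a knockout, 528 in aged WT and 363 in young WT in Early Act Cd8 cells, with 3 to 6 of 12 members at 0, and Csf1r, a defining macrophage gene, was at 0 in all 4 libraries. More than 1 UMI of 6 such markers was seen in 11 of 43 cells in the double knockout, 14 of 35 in the miR-146a knockout, 6 of 14 in aged WT and 9 of 70 in young WT. Without those cells 18 of 20 growth genes were still higher than in Mem Cd8 cells (median log2 1.53).

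NK cell genes summed to 77.2 summed CPM in the double knockout, 71.4 in the miR-146a knockout, 93.2 in aged WT and 79.2 in young WT in Early Act Cd8 cells, against 323 to 548 summed CPM in Mem Cd8 cells, with 6 to 7 of 10 members at 0, among them the defining genes Ncr1 and Klra8 in all 4 libraries. Gamma-delta T cell genes summed to 101 summed CPM in the double knockout, 6.49 in the miR-146a knockout, 46.6 in aged WT and 55.9 in young WT in Early Act Cd8 cells, against 214 to 349 summed CPM in Mem Cd8 cells, with 13 Trdc UMIs in 2 cells of the double knockout. Platelet genes had no UMI, and erythroid genes summed to at most 77.9 CPM.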

How the data were processed

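Single-cell RNA of live CD45-positive splenocytes was counted in 4 libraries, 1 per group. The authors deposited raw UMI counts for 31053 genes, made with Cell Ranger 3.0.0 on mm10 per the submitters' processing notes, and a table that gives cell type names (16) to barcodes. The sources used here do not give how that annotation was made, and per the labels' protocols both 3' and 5' chemistry are named. Whether reads were counted by strand and whether doublets were removed are not given either, and no doublet caller was run. Early Act Cd8 cells were taken by that name. Members and gene lists were chosen with earlier results of these data known.

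UMIs were summed per type and library and scaled to CPM. Log2 ratios had on average 1 count added in proportion to the totals of both profiles; the design as first written added 1 count to each sum alike, which raises the smaller profile and is given as an alternative. Genes with at least 20 UMIs in both profiles together were compared. Intervals are exact Poisson, Clopper-Pearson, conditional binomial or Katz intervals at the 95% level, and floors are 3 counts. Up to 12 genes per direction were named. Between libraries these had at least 20 UMIs in 8 cells of the higher library and an interval wholly past 1.5-fold, ranked by the bound nearest to 1; between types they passed 1.5-fold in each of 4 libraries with at least 40 UMIs in the higher type, ranked by the median log2 ratio. Genes of antigen receptors, haemoglobin, mitochondria and ribosomal proteins were among those left out; marker genes and the extremes of each list were added, and other examples were chosen after their values were seen. The type comparison was extended to Mem Cd4 cells, and TMM scaling between types and classes by coreceptor were added, after the data were seen. Of the genes on 26 lists, 1 was not found. Scripts were tested on simulated counts and ran in Python 3.11.15 with NumPy 2.4.6, SciPy 1.17.1 and pandas 2.3.3.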

Additional observations from a re-analysis of the deposited data

How the results depend on the processing

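With 14 Early Act Cd8 cells in aged WT and 1 library per group, counting error and single cells limit most values, and neither mice nor libraries can be separated from the groups. The share of the cells depended on the coreceptor: counting cells with a Cd8a or Cd8b1 UMI, its ratio was 0.712 for aged over young WT, 0.458 for the miR-146a knockout over aged WT and 2.69 for the double knockout over the miR-146a knockout. The ratios of the miR-146a knockout over aged WT and of the double knockout over the miR-146a knockout thereby cross 1, and that of the 2 knockouts was also above 1, at 1.12, with the marker filter. By coreceptor each Katz interval included 1, so counting error alone covers no change in these ratios. With the marker filter the interval was 0.645 to 1.93. In the 12 recomputations other than by coreceptor the ratio of shares moved by less than its interval. No paired analysis was possible because the groups share only replicate number 1, with 1 library each.

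Counts of genes past 2-fold kept within 1.5 times of their main value in 70 recomputations and not in 38. Against Mem Cd8 cells, 411 genes were higher with TMM scaling and 2196 with 1 count added to both sums alike, and 1095 were lower with UMIs summed over the libraries and 294 with 1 count added alike. Against Nai Cd8 cells, 576 were higher with totals that leave out ribosomal, mitochondrial and receptor genes, 375 with TMM and 1929 with 1 count added alike, and 1854 were lower with TMM and 211 with 1 count added alike. The smaller profile gains most from a count added alike, by construction. The cause of the other shifts was not tested. Leaving out each library in turn gave 17 to 18 higher growth genes against Mem Cd8 cells and 15 to 16 against Nai Cd8 cells.

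In aged over young WT, TMM gave 65 higher and 190 lower genes, a minimum of 10 UMIs 316 and 407, of 50 UMIs 17 and 13, and no minimum 1550 and 1737, and 1 count added alike gave 68 lower. In the miR-146a knockout over aged WT, cells with at most 1 UMI of B and myeloid markers gave 74 higher and 19 lower, a minimum of 10 UMIs 412 and 213, of 50 UMIs 30 and 8, and no minimum 1811 and 1340, and TMM and 3 counts added each gave 40 lower. In the double knockout over the miR-146a knockout, a minimum of 10 UMIs gave 200 higher and 268 lower, of 50 UMIs 11 and 17, and no minimum 855 and 2020; a mean over cells gave 94 higher and the marker filter 48 lower. Minimums change how many genes are compared.

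Among recomputed log2 ratios of single genes 375 stayed, 28 moved and 3 reversed, all of chemokines that rest on single cells: Ccl4 in aged over young WT was -5.52 with the marker filter, Ccl5 in the miR-146a knockout over aged WT was 1.36 with it, and Ccl5 in the double knockout over the miR-146a knockout was 0.33 without the cell with most of its UMIs. Among recomputed list medians 1003 kept their value within the limits used, 65 moved and 2 reversed, those of Myeloid genes in the miR-146a knockout over aged WT, which were -0.12 with the marker filter and -0.25 with a minimum of 50 UMIs.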
